A study of Homo sapiens with 15 samples.

Results

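PRRX1, LRRC15, TINAGL1 and APBB1IP are 4 of the 19684 genes measured by RNA-seq in human pluripotent stem cells, retinal organoids (ROs) and the Müller glial cells expanded from them. They were chosen by symbol, as genes with the largest rises between passage 1 and passage 5 of the expanded cells (iMGCs). Their change between those passages, and the low passage 1 and high passage 5 levels that made it, are therefore descriptions and carry no test. Each symbol matched 1 gene identifier in the tables.

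The 15 libraries fell into 5 groups of 3, all from the wild-type BC1-GFP line, an established human induced pluripotent stem cell (hiPSC) line. They were undifferentiated hiPSCs, neural retina layers of ROs at day 70 (D70-RO) and at day 150 (D150-RO), and iMGCs grown from the neural retina of day 150 ROs and collected on day 5 of passage 1 (P1 iMGC) or of passage 5 (P5 iMGC). No group received a treatment beyond its culture medium. The hiPSCs and the iMGCs grew on Matrigel, and the ROs were floating aggregates. By the paper's methods, the iMGC medium and the medium of the floating ROs both contained serum. The sample protocols gave 5 pooled ROs per RO library and 3 independent experiments per group, whereas the series text gave 2 experiments for hiPSCs and ROs, 3 to 5 ROs each and 2 sequencing companies; which libraries were processed together was not given, so batch and group cannot be told apart, and where replicates were not independent the p-values measure technical spread only. All groups came from 1 cell line, so the values describe that line.

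PRRX1 is a paired-related homeobox transcription factor of embryonic limb and craniofacial mesenchyme, also known from activated fibroblasts. LRRC15 is a leucine-rich repeat protein of the cell surface, known from activated stromal fibroblasts and inducible by TGF-beta. TINAGL1 is a secreted matrix protein related to tubulointerstitial nephritis antigen (TINAG), with a papain-like domain that lacks protease activity. APBB1IP, also called RIAM, is an adaptor that binds active RAP1 and carries talin to integrins, a step in integrin activation best known in blood cells. Müller glia are the principal glia of the retina, and in a dish they divide and change shape.

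In GENCODE 29 on the GRCh38 build, PRRX1 (ENSG00000116132) lies on the plus strand of chromosome 1 from 170662728 to 170739419, and LRRC15 (ENSG00000172061) on the minus strand of chromosome 3 from 194355247 to 194369743. TINAGL1 (ENSG00000142910) lies on the plus strand of chromosome 1 from 31576485 to 31587686, and APBB1IP (ENSG00000077420) on the plus strand of chromosome 10 from 26438203 to 26567803. TINAGL1 shares 158 of its 5281 exonic bases with LINC01226 on the same strand, so a small part of its reads could belong to that transcript. The other 3 genes share no exonic base with another annotated gene.

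All 4 genes had entries in a RefSeq promoter table (GRCh38.p14). The bases before the gene start are shown for LRRC15, TINAGL1 and APBB1IP, since these genes were high in P5 iMGCs together; those of PRRX1 lie inside its annotated gene and are not printed. Capitals mark every match, on either strand, to 6 searched motifs. These were TATAAA, the core promoter box read by the general transcription machinery, then GGGCGG, the box bound by SP1, and TGANTCA, the site of AP-1 factors. The others were GGAATG, the site of TEAD factors, then CANNTG, the E-box of helix-loop-helix factors, and TAATTA, the core of many homeobox sites.
LRRC15, chr3:194369744-194369993, minus strand: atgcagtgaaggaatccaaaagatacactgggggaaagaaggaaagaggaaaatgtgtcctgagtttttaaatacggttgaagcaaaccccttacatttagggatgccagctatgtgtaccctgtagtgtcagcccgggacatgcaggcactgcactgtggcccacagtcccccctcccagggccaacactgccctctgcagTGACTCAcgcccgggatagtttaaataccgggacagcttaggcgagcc
TINAGL1, chr1:31576265-31576484, plus strand: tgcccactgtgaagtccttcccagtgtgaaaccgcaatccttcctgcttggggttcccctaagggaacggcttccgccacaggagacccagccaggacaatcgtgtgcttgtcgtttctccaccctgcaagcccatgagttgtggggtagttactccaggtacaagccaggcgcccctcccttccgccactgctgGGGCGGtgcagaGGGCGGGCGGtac
APBB1IP, chr10:26438091-26438202, plus strand: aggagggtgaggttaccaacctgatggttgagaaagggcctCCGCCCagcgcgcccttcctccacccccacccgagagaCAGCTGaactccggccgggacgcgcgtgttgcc

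No searched motif was in all 3 windows, and the GC box was in those of TINAGL1 and APBB1IP. The LRRC15 window held 1 AP-1 match, which 6.57% of all 35116 promoter windows cut to the same length also held. The TINAGL1 window held 3 GC boxes, the last 2 overlapping, and 38.9% of windows of its length held at least 1. The APBB1IP window held 1 GC box and 1 E-box, found in 19.3% and 36.3% of windows of its length. No window held the TATA box, the TEAD motif or the homeobox core. These matches are letters in a window and were not measured as binding.

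Levels are given as FPKM, the fragments scaled by transcript length and by the number of mapped fragments, which can be compared between genes. Library totals ran from 11349600 to 20398755 expected counts. The hiPSC and RO libraries and the iMGC libraries stood in separate tables, and the length implied by a gene's count and FPKM agreed between libraries to a median ratio of 0.9998 to 1.001 over 8064 genes. In bulk RNA, a gene carried by more cells and a gene with more RNA in each cell cannot be told apart.

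PRRX1 was near 0 in every group before passage 5. Its FPKM in the 3 P5 iMGC libraries was 2.11, 1.48 and 1.65, a mean of 1.75 ± 0.326 (SD, n = 3). In P1 iMGCs it was 0.01, 0 and 0.03, and the 3 libraries together held 3 counts. The P5 libraries held 331 counts, and the groups did not overlap.

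The other groups were as low for PRRX1 as P1 iMGCs. The hiPSC libraries stood at 0.02, 0.11 and 0.07 FPKM. The younger organoids stood at 0.02, 0.07 and 0.04 FPKM and the older ones at 0, 0.08 and 0.18 FPKM. Ordered by mean, P5 iMGCs were followed by D150-ROs, hiPSCs, D70-ROs and P1 iMGCs, and every pair of neighbours below P5 iMGCs overlapped. The summed counts of 15, 8 and 16 in hiPSCs, D70-ROs and D150-ROs gave ratios with 95% counting intervals that spanned 1, from 0.213 to 1.46 for D70-RO over hiPSC, from 0.709 to 4.74 for D150-RO over D70-RO and from 0.472 to 2.21 for D150-RO over hiPSC. A difference among these 3 groups was therefore not detectable at this depth. In the fit without a filter on low values, PRRX1 had an edgeR adjusted p of 0.472 for D70-RO over hiPSC, 0.554 for D150-RO over D70-RO and 0.988 for D150-RO over hiPSC. Such intervals, here and below, compare counts scaled by effective library size and cover counting error only.

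LRRC15 was high in P5 iMGCs, low but present in hiPSCs and P1 iMGCs, and nearly absent from the counts of ROs. Its FPKM in P5 iMGCs was 3.3, 2.68 and 2.72, a mean of 2.90 ± 0.347 (SD, n = 3). In P1 iMGCs it was 0.19, 0.15 and 0.11, and in hiPSCs 0.42, 0.13 and 0.13. All P5 libraries lay above all others, while hiPSCs and P1 iMGCs overlapped.

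In ROs, LRRC15 had 1 count over the 3 D70-RO libraries and 2 counts over the 3 D150-RO libraries, against 72 in hiPSCs. The hiPSC level was 66.2 times that of D70-ROs (95% counting interval 11.5 to 2651) and 37.7 times that of D150-ROs (10.1 to 317). LRRC15 failed the filter of 1 FPKM in at least 3 of the libraries compared, so its test among these groups came from the fit without a filter. There its level in D70-ROs fell by 5.61 (log2) from that of hiPSCs (SE 0.944, edgeR quasi-likelihood test, adjusted p = 0.000102 over 17465 genes), where 20.6% of genes were called lower. Over D150-ROs and hiPSCs, the same fit put it lower by a log2 change of -4.97 (SE 0.826, edgeR adjusted p = 3.22e-05 over 17605 genes), where 26.9% were called lower. The first hiPSC library held 42 of the 72 counts, and without it the edgeR adjusted p was 0.000782 for D70-ROs and 0.000567 for D150-ROs.

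P1 iMGCs, grown from D150-ROs, had 44 counts of LRRC15 against 2 in those ROs, a ratio of 33.9 (95% counting interval 8.84 to 289). On the log2 scale this count ratio was 5.08, against 4.49 without the second D150-RO library and 3.49 as a ratio of mean FPKM. The P1 libraries of 0.11 to 0.19 FPKM all lay above the D150-RO libraries of 0 to 0.02 FPKM. LRRC15 was thus above the RO level at passage 1 already.

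TINAGL1 differed from the other 3 genes in that hiPSCs, and not P5 iMGCs, had its highest level. Its FPKM in hiPSCs was 6.68, 7.35 and 6.79, a mean of 6.94 ± 0.359 (SD, n = 3). In P5 iMGCs it was 3.81, 4.22 and 4.41, a mean of 4.15 ± 0.307. Every P5 library lay below every hiPSC library, and the P5 level was 0.765 of the hiPSC level by scaled counts (95% counting interval 0.682 to 0.858). The ratio of the mean FPKM lay below this interval. The counts were scaled by effective library size and FPKM by the number of mapped fragments.

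The 3 groups between those stages were low for TINAGL1. The D70-RO libraries stood at 0.06, 0.04 and 0.03 FPKM, the D150-RO libraries at 0.15, 0.11 and 0.13, and the P1 libraries at 0.17, 0.36 and 0.28. No neighbouring groups overlapped in the order of hiPSC, P5 iMGC, P1 iMGC, D150-RO and D70-RO, although the last 3 rested on 26, 13 and 4 counts. The ratio of D150-RO to D70-RO was 2.86 (95% counting interval 0.882 to 12.0), so that step was not detectable by counts at this depth, and the fit without a filter gave an edgeR adjusted p of 0.164, where 30.7% of 17251 genes were called. The ratio of P1 iMGC to D150-RO was 3.08 (1.53 to 6.53). On the log2 scale this count ratio was 1.62, against 1.05 as a ratio of mean FPKM.

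TINAGL1 passed the filter against hiPSCs through the hiPSC libraries alone, so it had to be lower in ROs to be tested. Both tests called it lower there. In the fit without a filter, its edgeR adjusted p was 8.54e-11 for D70-ROs and 2.32e-13 for D150-ROs. From hiPSCs to D70-ROs its log2 level fell by 7.56 (SE 0.310, edgeR adjusted p = 4.51e-09), where 21.1% of 12954 genes tested were called lower. From hiPSCs to D150-ROs it fell by 6.13 (SE 0.224, edgeR adjusted p = 1.20e-10), where 29.0% of 13344 genes were called lower. With 4 and 13 counts left in the RO groups, the counting intervals of the hiPSC to RO ratios were 80.4 to 760 for D70-ROs and 42.1 to 137 for D150-ROs.

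APBB1IP had no count in any of the 6 RO libraries. Its FPKM in P5 iMGCs was 1.37, 1.47 and 1.12, a mean of 1.32 ± 0.180 (SD, n = 3), the lowest P5 level of the 4 genes. In P1 iMGCs it was 0.04, 0 and 0.04, from 4 counts, and in hiPSCs 0.18, 0.04 and 0.04, from 14 counts. All P5 libraries lay above all others, and hiPSCs overlapped with P1 iMGCs.

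A count of 0 allows up to 3 counts per group. Against that floor, the 182 counts of P5 iMGCs were at least 97.1-fold higher than D150-ROs, and hiPSCs were at least 4.29-fold higher than D70-ROs and at least 4.89-fold higher than D150-ROs. In the fit without a filter, the hiPSC to RO difference had an edgeR adjusted p of 0.0206 for D70-ROs and 0.0119 for D150-ROs. The first hiPSC library held 10 of the 14 counts, and without it the edgeR adjusted p was 0.136 and 0.101. Without the first or the third D70-RO library it was 0.0511 or 0.0502. The low APBB1IP signal of hiPSCs thus rested on 1 library, and the P5 level did not.

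**Figure D1:**
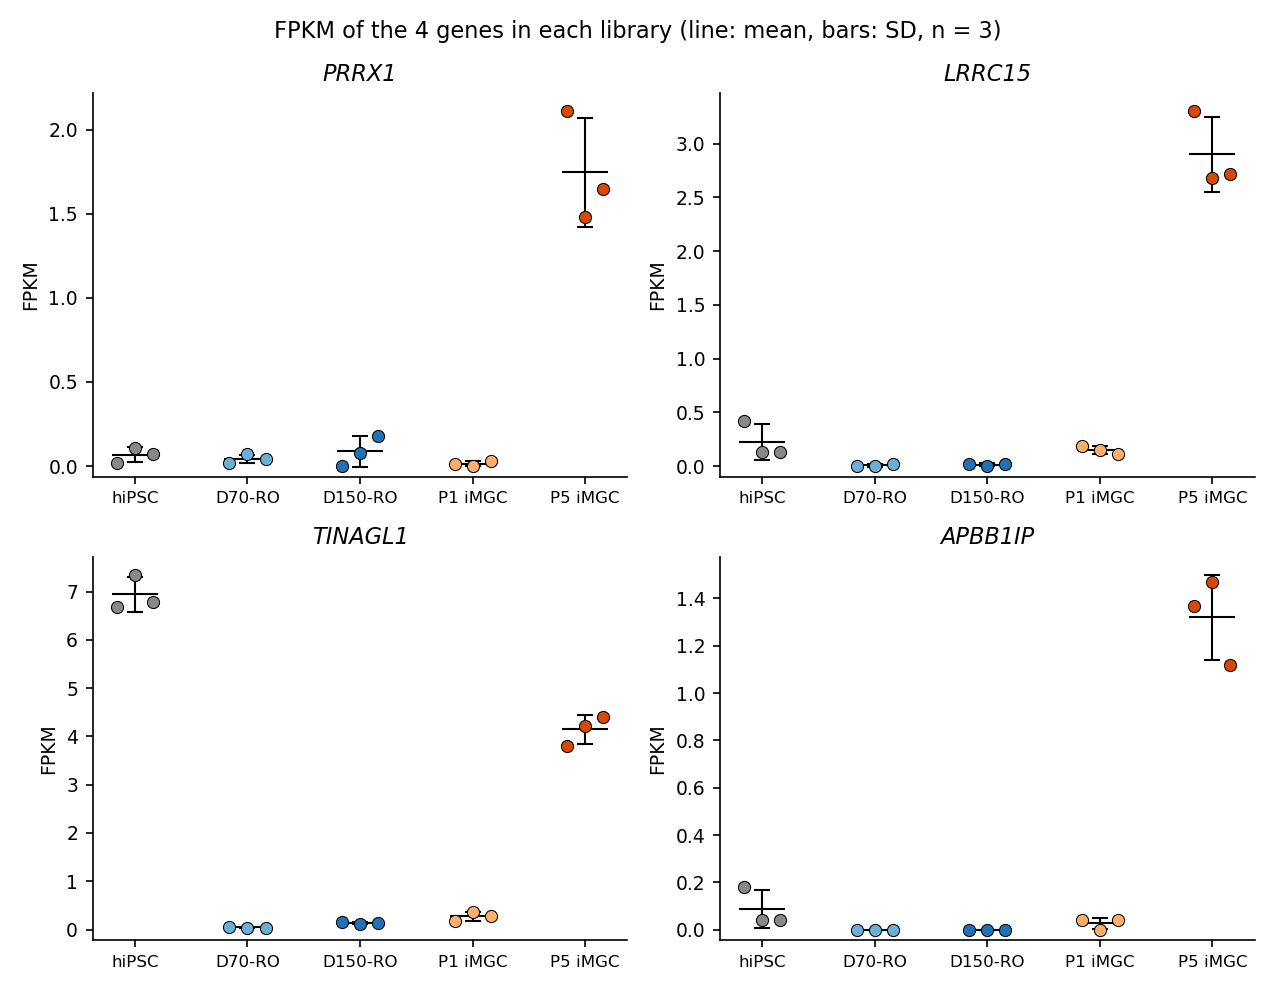
FPKM (vertical axis, a scale of its own in each panel) of PRRX1, LRRC15, TINAGL1 and APBB1IP in the 3 libraries of each of the 5 groups; points are libraries, horizontal lines the mean and bars the SD. The P5 iMGC points lie above all others for PRRX1, LRRC15 and APBB1IP, and between hiPSCs (mean 6.94) and P1 iMGCs (mean 0.27) for TINAGL1.

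Between P1 and P5 iMGCs, 11366 genes passed the filter and 332 were called at an adjusted p under 0.05 and a change of at least 2-fold, 2.92% of those tested. Of these, 221 were higher in P5 iMGCs (1.94%) and 111 lower (0.977%). The 4 genes were among the 221, which their choice fixed. All 4 passed the filter through the P5 libraries alone. Of the genes tested, 176 had a mean P1 FPKM under 1, and 80 of the 221 genes called higher were among them.

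The 4 rises were large and rested on very different numbers of P1 counts. PRRX1 rose most, by 6.67 on the log2 scale (SE 0.39), and with 3 counts in P1 iMGCs its ratio of 115 had a 95% counting interval of 38.9 to 559. APBB1IP changed by 5.44 (SE 0.43), a ratio of 47.3 (18.2 to 175). LRRC15 changed by 4.28 (SE 0.19) and TINAGL1 by 4.16 (SE 0.23), ratios of 19.6 (14.4 to 27.1) and 18.0 (12.1 to 27.8). The intervals of PRRX1 and APBB1IP overlapped widely, so their order is not fixed by these counts. Without the third P1 library, which held 2 of the 3 PRRX1 counts, the PRRX1 value was 7.49, and without the second, which held none, 6.15.

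By size of the rise among the genes tested, PRRX1 ranked 1, APBB1IP 3, LRRC15 4 and TINAGL1 5. The gene just outside was HAVCR1, a cell surface receptor for phosphatidylserine, at 3.83, next to TINAGL1 at 4.16 just inside. The choice set no threshold of size, and 5 genes called higher had a log2 change over 4. These ranks depend on the filter. In the fit without it, PRRX1 ranked 4, APBB1IP 14, LRRC15 46 and TINAGL1 47 of 16194 genes. With the filter, leaving out 1 P1 library moved LRRC15 or TINAGL1 to rank 6.

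The P5 levels of the 4 genes stayed in the lower part of the expressed range. Among all 19684 genes ranked by mean FPKM in P5 iMGCs, TINAGL1 stood at 8541, LRRC15 at 9432, PRRX1 at 10430 and APBB1IP at 10857, where 11244 genes had a mean of at least 1 FPKM. In each of the 3 P5 libraries TINAGL1 was above LRRC15, by 1.16, 1.58 and 1.62 times, and LRRC15 above PRRX1, by 1.56, 1.81 and 1.65 times. PRRX1 was 1.54, 1.01 and 1.47 times APBB1IP, so these 2 genes were level in the second library. Relative to the mean, the SD was 18.7% for PRRX1, 13.7% for APBB1IP, 12.0% for LRRC15 and 7.40% for TINAGL1. PRRX1 and LRRC15 were both highest in the first P5 library, APBB1IP in the second and TINAGL1 in the third.

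**Figure D2:**
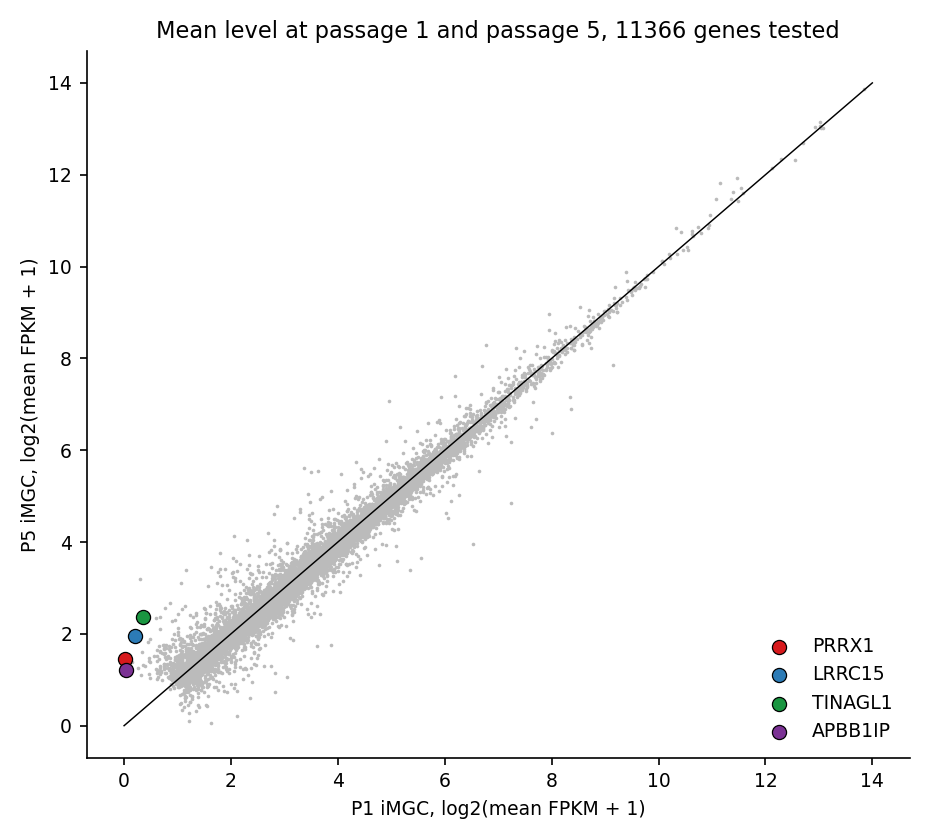
Log2 of the mean FPKM plus 1 in P1 iMGCs (horizontal) and P5 iMGCs (vertical) for the 11366 genes tested; grey points are genes, the line marks equal levels and the coloured points are the 4 genes. They sit at the left edge, with P1 means of 0.0133 to 0.27 FPKM and P5 means of 1.32 to 4.15 FPKM.

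Over the 15 libraries, PRRX1, LRRC15 and APBB1IP varied almost as 1 pattern and TINAGL1 did not join it. Pearson's r of log2(FPKM + 1) was 0.972 for PRRX1 with LRRC15, 0.974 for PRRX1 with APBB1IP and 0.992 for LRRC15 with APBB1IP. For TINAGL1 it was 0.482 with PRRX1, 0.566 with LRRC15 and 0.544 with APBB1IP. The 15 points share 5 groups, and the 3 P5 libraries alone set most of the first 3 values, so these are descriptions of a shared group pattern.

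Genes with the most similar patterns were ranked among 12780 genes with at least 1 FPKM in 3 libraries and a range of at least 1 on that scale. The 5 most like PRRX1 included APBB1IP, LRRC15, HAVCR1 (r = 0.962) and TGFA (0.956), a ligand of the EGF receptor. Those most like LRRC15 included APBB1IP, the receptor gene PEAR1 (0.981), PRRX1 and the tyrosine phosphatase gene PTPN3 (0.964). Those most like APBB1IP included LRRC15, PEAR1 (0.977), PRRX1 and HAVCR1 (0.968). TINAGL1 had none of these; its nearest genes included ARHGAP22 (0.982), STOM (0.938), ARHGEF35 (0.936) and ACTRT3 (0.935), and these 4 had their highest mean in hiPSCs and their second highest in P5 iMGCs. ARHGAP22, for a GTPase-activating protein, was at 3.60 ± 0.454 FPKM in hiPSCs, 0.117 ± 0.0462 in D70-ROs, 0.387 ± 0.175 in P1 iMGCs and 1.78 ± 0.0721 in P5 iMGCs (SD, n = 3 each).

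**Figure D3:**
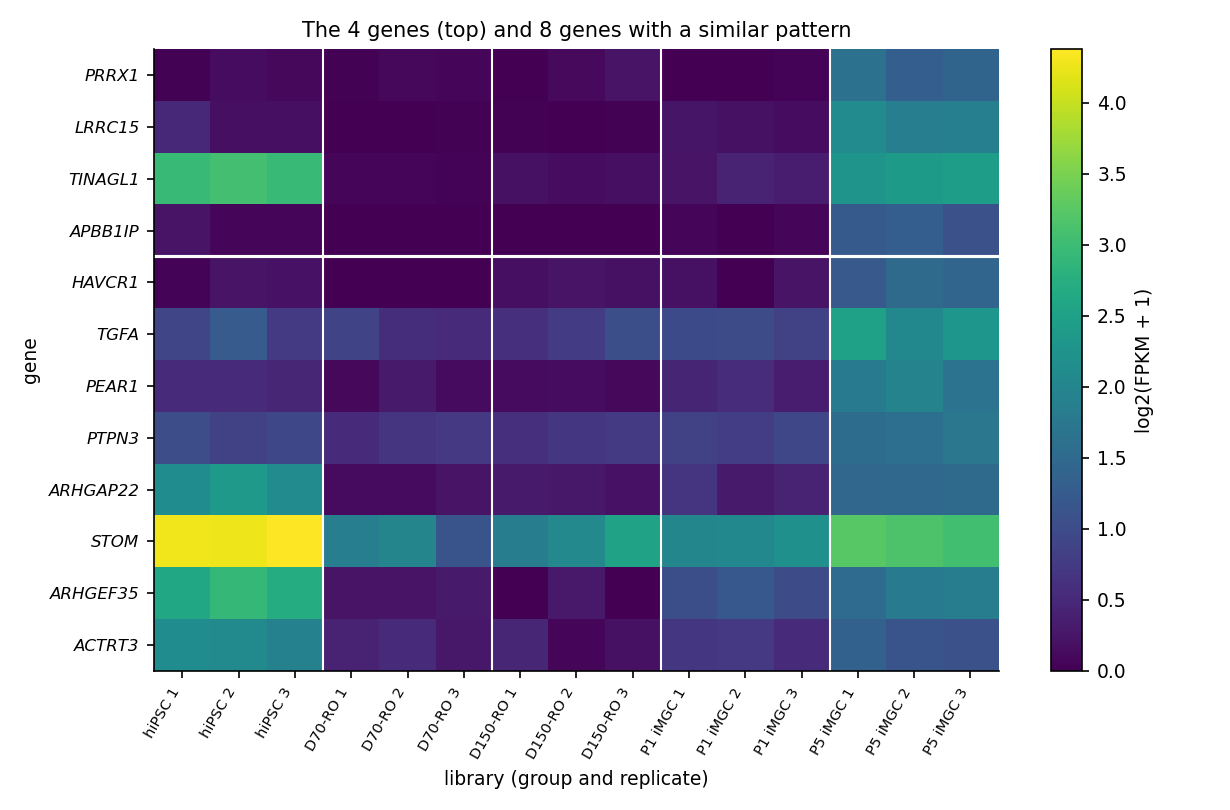
Log2(FPKM + 1) as colour for the 4 genes (top rows) and 8 genes like them in pattern (rows below), with 1 column per library in group order. HAVCR1, TGFA, PEAR1 and PTPN3 brighten in the P5 iMGC columns as PRRX1, LRRC15 and APBB1IP do, and the last 4 rows are brightest in hiPSCs, as TINAGL1 is.

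Related genes were taken as lists of known families and partners. Of 26 paired-class homeobox factors other than PRRX1, 2 passed the filter between P1 and P5 iMGCs and the other 24 were not tested. Of all genes tested, 1.94% were called higher and 0.977% lower. 1 of the 2 was called, and it passed the filter only through its P5 libraries, so it had to be higher there to be tested. This gene, OTX2, a factor of photoreceptor and pigment epithelium development, rose by 2.92 on the log2 scale (SE 0.31, edgeR adjusted p = 4.67e-08), from 0.283 ± 0.0306 to 1.51 ± 0.155 FPKM (SD, n = 3). PRRX2, the closest relative of PRRX1, was at 3.18, 1.93 and 2.73 FPKM in hiPSCs and at 0 in every P5 library, so the 2 relatives were high in different groups. From D150-ROs to P1 iMGCs, where 24.1% of genes were called lower, all 8 tested factors of this class fell. All but PAX6 passed the filter only through their D150-RO libraries, so they had to be lower in P1 iMGCs to be tested.

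Of 25 other transcription factors of mesenchyme, 13 were tested, 1 rose and none fell, where 1.94% of all genes were called higher and 0.977% lower (edgeR, also in DESeq2; at an unadjusted p under 0.05, 5 were higher and 3 lower), with a median log2 change of 0.09 against -0.0014 for all genes. MSX2, a homeobox factor of bone and limb that also passed the filter only through its P5 libraries, rose from 0.573 ± 0.0723 to 2.35 ± 0.308 FPKM (log2 change 2.11, SE 0.22, edgeR adjusted p = 3.46e-08). TWIST1 was at 2.00 ± 0.232 and 3.34 ± 0.372 FPKM, under 2-fold. Between D150-ROs and P1 iMGCs, 10 of the 25 were tested and 8 of them rose, where 20.0% of all genes did. Of these 8, all but NR2F2 needed their P1 libraries to pass the filter, so the filter favoured a rise. PRRX1 had 16 counts in D150-ROs and 3 in P1 iMGCs (ratio 0.289, 95% counting interval 0.0539 to 1.01). Its choice by the rise from passage 1 favoured a low P1 level. This ratio is therefore a description and is not set against the 8.

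Among 26 genes of activated fibroblasts, the setting LRRC15 is known from, 23 were tested between the passages, 3 rose and 3 fell, where 1.94% of all genes were called higher and 0.977% lower, with a median of 0.23. At an unadjusted p under 0.05 in edgeR, 14 were higher and 5 lower. POSTN, a matricellular protein, rose from 9.32 ± 1.24 to 48.2 ± 2.50 FPKM (log2 change 2.44, edgeR adjusted p = 7.67e-19). FAP, a surface protease, rose from 6.23 ± 0.602 to 26.5 ± 0.693 FPKM (2.23, edgeR adjusted p = 1.11e-18), and SULF1, a heparan sulfate sulfatase, from 0.657 ± 0.345 to 2.40 ± 0.347 FPKM. SULF1 needed its P5 libraries to pass the filter, so the filter favoured a rise. The collagen gene COL3A1 fell by 1.26 on the log2 scale, the proteoglycan gene DCN by 1.75 and the matrix glycoprotein gene TNC by 1.11. From D150-ROs to P1 iMGCs, 21 of 24 tested rose and 3 fell, against 20.0% and 24.1% of all genes. Among those that rose, POSTN, COL3A1, ACTA2, MMP11, GREM1, LUM and DCN needed their P1 libraries to pass the filter. Among those that fell, PDGFRA and SULF1 needed their D150-RO libraries.

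The surface proteins related to LRRC15 by leucine-rich repeats numbered 17, of which 2 were tested. LRRC32, which presents latent TGF-beta, rose from 10.1 ± 0.666 to 21.6 ± 0.234 FPKM (log2 change 1.17, SE 0.05, edgeR adjusted p = 1.34e-14). GP5, a platelet glycoprotein and the neighbour of LRRC15 in this family, was at 0 in all P1 libraries and at 0, 0.02 and 0.09 FPKM in P5 iMGCs. For TINAGL1, the related TINAG was at 0 in all libraries but 1 of P5 iMGCs, where it was 0.04 FPKM. None of the 7 tested of the list of 12 papain-family cathepsin genes and TINAG was called between passages by edgeR or DESeq2, while at an unadjusted p under 0.05 in edgeR 5 were higher and 2 lower, all under 2-fold; CTSB, a lysosomal protease, was at 423 ± 5.34 and 449 ± 2.00 FPKM.

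Partners of APBB1IP were read beside it. Of 35 genes of the RAP1, talin and integrin machinery, 29 were tested, 2 rose and none fell, where 1.94% of all genes were called higher and 0.977% lower (edgeR, also in DESeq2; at an unadjusted p under 0.05, 15 were higher and 5 lower), with a median of 0.16. RAP1B was at 134 ± 6.36 FPKM in P1 and 123 ± 5.76 in P5 iMGCs, the talin gene TLN1 at 133 ± 1.83 and 128 ± 2.05, and the integrin gene ITGB1 at 1778 ± 26.6 and 1696 ± 73.3. ITGB3, an integrin subunit of platelets and spreading cells, rose from 20.6 ± 0.834 to 47.5 ± 2.09 FPKM (log2 change 1.26, edgeR adjusted p = 7.75e-17). RAP1GAP, which turns RAP1 off, rose from 2.45 ± 0.108 to 4.87 ± 0.290 FPKM (1.05, edgeR adjusted p = 3.34e-08). RAPH1, the lamellipodin gene and the other member of the APBB1IP family, was at 22.2 ± 1.04 and 12.1 ± 0.547 FPKM, a log2 change of -0.73 that missed the 2-fold limit. Partners known from blood cells were near 0: the kindlin gene FERMT3 was at 0.0933 ± 0.0666 FPKM in P1 and 0.277 ± 0.142 in P5 iMGCs, the integrin gene ITGB2 at 0.0233 ± 0.0252 and 0.227 ± 0.112, and the adaptor gene SKAP1 at 0 in both.

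**Figure D4:**
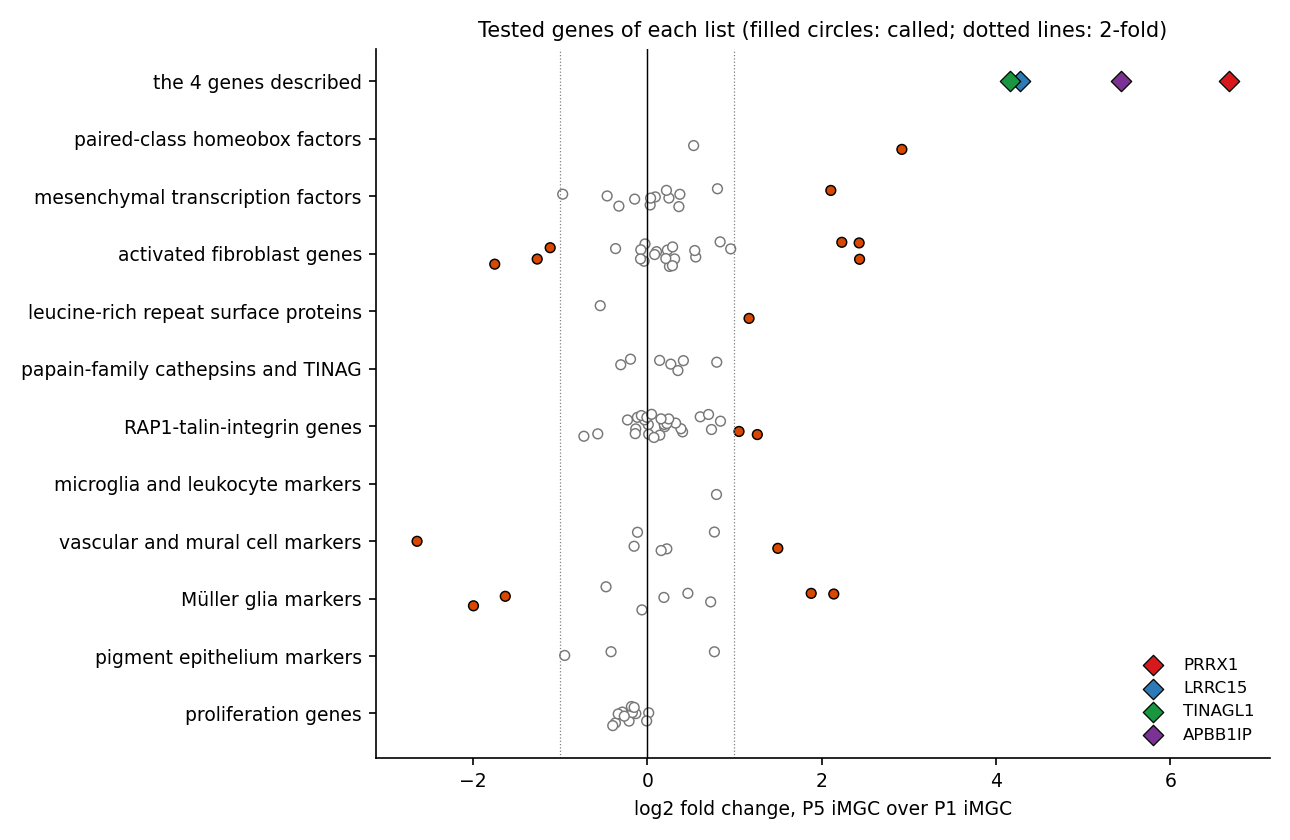
Log2 fold change from P1 to P5 iMGCs (horizontal) for the tested genes of 11 lists and for the 4 genes (diamonds, top row); filled circles are called genes, open circles are not, and dotted lines mark 2-fold. The 4 diamonds lie at 4.16 to 6.67, beyond every listed gene, of which OTX2 at 2.92 was the highest. Their choice by the size of this rise set that position.

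APBB1IP is known from blood cells, so markers of microglia and leukocytes were read beside it. Of 17 such markers, the 1 that passed the filter, CD68, was not called by edgeR or DESeq2 (log2 change 0.79, unadjusted p under 0.05); it was at 6.63 ± 0.963 FPKM in P1 and 10.5 ± 1.98 in P5 iMGCs. The summed level of the list was 7.14 to 8.52 FPKM in P1 and 9.6 to 12.9 in P5 iMGCs. AIF1, TYROBP, ITGAM, C1QA, C1QC and P2RY12 were at 0 in all P5 libraries, and PTPRC (CD45) was at 0 to 0.01 FPKM, in libraries where APBB1IP stood at 1.12 to 1.47 FPKM. Other members were detected: LAPTM5 was at 0.450 ± 0.147 FPKM in P1 and 0.670 ± 0.105 in P5 iMGCs, CSF1R at 0.557 ± 0.332 and 0.320 ± 0.0200, and FCER1G at 0.0667 ± 0.0577 and 0.163 ± 0.196.

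PRRX1, LRRC15 and TINAGL1 are known from stromal or vascular tissue, and vascular and mural markers moved in both directions. Of 14 vascular and mural markers 7 were tested, where 1.94% of all genes were called higher and 0.977% lower. Of these 7, KCNJ8 rose from 1.81 ± 0.107 to 4.91 ± 0.577 FPKM and the contractile gene CNN1 fell from 91.3 ± 4.12 to 14.5 ± 0.588 FPKM. At an unadjusted p under 0.05 in edgeR, 4 were higher and 2 lower. The summed level of that list was 197 to 204 FPKM in P1 and 138 to 146 in P5 iMGCs, and without CNN1 it was 106 to 111 in P1 and 124 to 130.4 in P5 iMGCs, while CDH5 and CLDN5 were at 0 in P5 iMGCs. Mean FPKM in P1 and P5 iMGCs was 62.3 and 74.3 for RGS5, 26.5 and 28.4 for CSPG4. It was 11.7 and 9.86 for NOTCH3, 2.70 and 4.42 for ABCC9. From D150-ROs to P1 iMGCs, 5 of 8 tested were called higher and 1 lower, against 20.0% and 24.1% of all genes. Of the 5, CSPG4, CNN1 and DES passed the filter only through their P1 libraries. The lower one, KDR, passed it only through its D150-RO libraries (89.2 ± 3.97 FPKM, against 0.467 ± 0.0551 in P1 iMGCs). The part of other cell types in the rise of the 4 genes was not tested.

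The label of the cells was read against 15 Müller glia markers. VIM was at 2160 ± 20.0 FPKM in P1 and 2858 ± 50.6 in P5 iMGCs, GLUL at 13.4 ± 1.18 and 14.6 ± 0.720, and SOX9 at 5.21 ± 0.252 and 3.59 ± 0.164, none of them past the 2-fold limit. RLBP1 and CA2, at 33.5 ± 3.66 and 25.9 ± 3.15 FPKM in D150-ROs, were at 0 in all P1 libraries. AQP4 and S100B were at 0 there too, but were low in D150-ROs already (0.193 ± 0.0451 and 0.427 ± 0.0710 FPKM). From D150-ROs to P1 iMGCs, 3 of 13 tested markers were called higher and 9 lower, against 20.0% and 24.1% of all genes. The higher ones were VIM, APOE and CRYAB. In D150-ROs they were at 1065 ± 76.0, 13.6 ± 1.91 and 10.9 ± 1.21 FPKM. In P1 iMGCs they were at 2160 ± 20.0, 37.2 ± 3.23 and 30.2 ± 2.45 FPKM. The lower ones included GLUL and SOX9, at 100 ± 2.37 and 42.6 ± 3.81 FPKM in D150-ROs. SOX2, RLBP1, SLC1A3, CA2 and KCNJ10, also lower, passed the filter only through their D150-RO libraries. Between passages, of 9 tested markers, CRYAB and SLC1A3 rose, and NES and CLU fell, where 1.94% of all genes were called higher and 0.977% lower. SLC1A3 was at 0.373 ± 0.0153 FPKM in P1 and 1.19 ± 0.0608 in P5 iMGCs. It passed the filter only through its P5 libraries, so it had to be higher there to be tested. Neither the 3 tested of 10 pigment epithelium markers nor the 12 tested of 12 proliferation genes held a call between passages in edgeR or DESeq2. At an unadjusted p under 0.05 in edgeR, 1 pigment epithelium marker was higher and 2 were lower, and 0 proliferation genes were higher and 6 lower, with a median of -0.20.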

How the data were processed

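Poly(A) RNA of 15 libraries was sequenced, and the authors used HISAT2 for mapping and StringTie for assembly, and deposited expected counts (RSEM is named in the submitters' processing notes) and FPKM per gene; versions and the genome build were not given in the sources used here. Whether the deposited values include the batch correction named in the series text was not stated. Between 8.21% and 10.1% of counts per library were not whole; all 60 values of the 4 genes were. Counts were rounded and fitted in edgeR 4.0.16 (R 4.3.3; TMM scaling, quasi-likelihood test, Benjamini-Hochberg adjustment over all genes tested), with 1 fit per pair of groups, genes at 1 FPKM or more in at least 3 libraries, and calls at an adjusted p under 0.05 and at least 2-fold. DESeq2 1.42.0 and other settings served as alternatives. The fits were tested on simulated data. Counting intervals are exact (95%), and the floor for 0 counts is 3 counts per group. Positions came from GENCODE 29 and promoters from RefSeq. Depth limits precision most where a group held few counts.

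The 4 genes and the 11 lists (209 genes) were chosen with earlier results of these data known. Named genes are the 4 genes, the 5 most alike in pattern for each, up to 4 called genes with the largest change in each list, and 15 relatives and partners fixed by name; markers that were not called were named after their values were seen. Some genes that met this rule are not reported here. Correlations of the deviations of equally numbered replicates ran from -0.0295 to 0.264, the highest between D70-ROs and hiPSCs, and in no comparison did every pair exceed 0.1, the limit set for pairing, so the main fits have no block. In a further table, 6 iMGC columns name no passage and were not used here.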

Additional observations from a re-analysis of the deposited data

How the results depend on the processing

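Without a filter on low values, 694 genes were called between P1 and P5 iMGCs in place of 332; the other settings tried, the replicate block among them (333), stayed within 1.5 times. Leaving out 1 library at a time gave 327 to 346 calls in that comparison, 5663 to 5758 for P1 iMGC against D150-RO, 5516 to 5806 for D70-RO against hiPSC, 3978 to 4524 for D150-RO against D70-RO and 7707 to 7938 for D150-RO against hiPSC. The replicate block, which was not run in the fits without a filter, changed no call on the 4 genes between passages or on TINAGL1 against hiPSCs. Between passages those calls were fixed by the choice of the genes, so their stability, here and below, is a description. TINAGL1 passed the filter against hiPSCs through the hiPSC libraries alone. With the replicate block, the fitted values between passages were 6.67 for PRRX1, 4.27 for LRRC15, 4.17 for TINAGL1 and 5.43 for APBB1IP. No value of the 4 genes changed direction under any setting that could be fitted, other than PRRX1 among hiPSCs and ROs, which was not called: without the third D150-RO library its log2 ratio was -0.26 for D150-RO over D70-RO and -1.05 for D150-RO over hiPSC, and without the first hiPSC library the latter was -0.48.

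The FPKM pseudocount moved the sizes, as adding a constant does to low values. As a difference of mean log2(FPKM + 1), the change between passages was 1.43 for PRRX1, 1.76 for LRRC15, 2.02 for TINAGL1 and 1.17 for APBB1IP; with 0.1 added it was 4.02, 3.59, 3.55 and 3.496. TINAGL1 against hiPSCs was -2.93 (D70-RO) and -2.81 (D150-RO) with 1 added, -5.62 and -4.94 with 0.1 added, and -5.74 (D150-RO) as a log2 ratio of mean FPKM. Leave-one-out ranges between passages were 6.15 to 7.49 for PRRX1, 4.08 to 4.47 for LRRC15, 3.98 to 4.38 for TINAGL1 and 4.91 to 5.83 for APBB1IP. For TINAGL1 against hiPSCs they were -7.78 to -7.33 (D70-RO) and -6.28 to -6.06 (D150-RO).

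Within the 6 iMGC libraries alone, 0 of the 5 genes most like each of the 4 stayed in its first 5; with 0.1 added in place of 1, 4 stayed for PRRX1, LRRC15 and APBB1IP and 2 for TINAGL1. Upper-quartile scaling moved the median log2 change of all genes from -0.0479 to -0.163 (P1 iMGC against D150-RO) and from -0.0082 to -0.109 (D150-RO against D70-RO). The fits without a filter that also leave out a library were chosen after seeing the data.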
